A study of Mus musculus with 15 samples.

Results

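The club cell and airway secretory genes of the mouse are described here in lung and kidney samples of the BALB/c strain. The list holds 6 genes: the secretoglobins Scgb1a1, Scgb3a1 and Scgb3a2, the cytochrome P450 gene Cyp2f2, the mucosal defence gene Bpifa1 and the chitinase-like gene Chil1. A gene was taken when an array probe for it reached a detection p under 0.01 in 2 samples or more. Of the 6 listed genes, 5 were measured by 6 probes, out of 11648 genes in all, and Scgb3a2 is not analysed here. The probe nearest to that limit was the second of Scgb3a1, which passed it in 6 of 14 samples, and that of Cyp2f2 passed it in all 14. Expression was measured on Illumina mouse arrays in 3 fibrotic lungs of mice that received intratracheal bleomycin (bleomycin lung), 3 lungs of mice whose kidney was made fibrotic by unilateral ureteral obstruction, the surgical closure of the ureter of 1 kidney (UUO-mouse lung), 3 lungs of healthy mice, 2 obstructed kidneys (UUO kidney) and 3 kidneys of healthy mice. The series concerns differences between the vessels of organs and organ-specific metastasis. Neither time after injury nor age is given, no sham surgery or intratracheal vehicle is named for the healthy mice, and the kidney whose tissue field names the lung was grouped by its title (healthy kidney 1). Whole organs were measured, so fewer cells of a type and less RNA per cell cannot be told apart.

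Club cells are the dome-shaped secretory cells of the small airways. They release Scgb1a1, the club cell secretory protein that makes up much of the airway lining fluid, and detoxify inhaled compounds with P450 enzymes such as Cyp2f2, and in mice they can renew themselves and give rise to ciliated cells. Scgb3a1 and Bpifa1 belong to secretory cells and glands of the larger airways and nose, where Bpifa1 lowers surface tension and hinders bacteria. Chil1, the mouse counterpart of the human YKL-40 gene, encodes a secreted protein that binds chitin without cutting it and is made by epithelium, macrophages and neutrophils. The kidney has no airway epithelium.

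RefSeq places the genes on build GRCm38 at chr19:9083642-9087956 (Scgb1a1), chr11:49663595-49665118 (Scgb3a1), chr2:154142880-154149217 (Bpifa1), chr7:27119955-27133660 (Cyp2f2) and chr1:134182156-134190031 (Chil1). The 250 bases before the start of the gene are shown for the 4 genes that matched the promoter table of RefSeq, because they form 2 pairs whose levels went together over the lungs: Scgb3a1 with Bpifa1, and Cyp2f2 with Chil1. All 4 windows lie on the plus strand and read 5′ to 3′. Capitals mark matches, on either strand, to TATAAA (the TATA box), CAAGTG (a core bound by the lung transcription factor NKX2-1), TGTTTAC (forkhead factors) or TTGCNNAA (C/EBP factors).
The first pair is Scgb3a1 (chr11:49663345-49663594) and Bpifa1 (chr2:154142630-154142879).
Scgb3a1: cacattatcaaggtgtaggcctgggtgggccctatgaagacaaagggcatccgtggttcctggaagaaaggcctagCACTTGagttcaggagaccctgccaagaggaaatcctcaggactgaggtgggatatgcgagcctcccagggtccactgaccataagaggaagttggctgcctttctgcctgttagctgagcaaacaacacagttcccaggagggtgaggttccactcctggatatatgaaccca
Bpifa1: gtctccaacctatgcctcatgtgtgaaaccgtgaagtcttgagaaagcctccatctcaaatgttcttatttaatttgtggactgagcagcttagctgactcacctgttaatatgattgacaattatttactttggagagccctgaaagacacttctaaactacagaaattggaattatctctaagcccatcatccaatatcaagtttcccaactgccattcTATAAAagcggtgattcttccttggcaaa
The second pair is Cyp2f2 (chr7:27119705-27119954) and Chil1 (chr1:134181906-134182155).
Cyp2f2: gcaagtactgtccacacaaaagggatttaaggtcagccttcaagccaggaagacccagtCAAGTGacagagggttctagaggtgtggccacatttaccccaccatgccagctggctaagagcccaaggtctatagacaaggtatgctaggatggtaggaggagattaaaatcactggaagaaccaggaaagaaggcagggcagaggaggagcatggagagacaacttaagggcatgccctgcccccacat
Chil1: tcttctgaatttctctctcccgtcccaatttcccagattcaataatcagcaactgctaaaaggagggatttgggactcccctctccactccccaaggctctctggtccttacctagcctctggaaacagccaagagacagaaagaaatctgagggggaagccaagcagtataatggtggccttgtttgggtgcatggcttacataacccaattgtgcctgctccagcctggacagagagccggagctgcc
The windows of Scgb3a1 and Cyp2f2 held 1 CAAGTG match each, that of Scgb3a1 on the opposite strand, at -174 and -191 from the start. The window of Bpifa1 held 1 TATAAA match at -29, and that of Chil1 held none of the motifs. Of 32851 windows of this length, 11.6% held CAAGTG, 12.4% TATAAA, 9.56% TTGCNNAA and 3.17% TGTTTAC. Neither pair shared a motif, and the matches are letters in these windows only.

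Levels are log2 intensities after background correction and quantile normalization, which gives probes of the same rank on an array the same value. A probe counts as above background at a detection p under 0.05, and the lowest level above background lay between 4.79 and 5.30 depending on the sample. Changes are log2 differences ± SE from limma, fitted over all genes and samples, and "rose", "fell" or "passed" mean a Benjamini-Hochberg adjusted p under 0.05 over the 11648 genes. The 14 samples came from 10 mice, and 4 mice gave a lung and a kidney. Kidney transcripts marked every kidney (10 of 10 list members above background) and alveolar type 2 transcripts every lung (11 of 11), so the organs fit their labels. Other tissues stood out in single samples: healthy lung 3 and UUO-mouse lung 1 held all 10 liver transcripts above background (2 to 6 in the other lungs), and bleomycin lung 1 had the kidney transcript Umod at 9.03. UUO mice had Xist above background and no Eif2s3y, healthy mice the reverse, and of the bleomycin lungs 1 and 2 had Eif2s3y and 3 had Xist at 8.86, so sex and obstruction cannot be told apart. Bleomycin mice carry another kind of animal number, so a difference between sets of mice cannot be told apart from bleomycin.

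Among the genes, Cyp2f2 and Chil1 fell in the bleomycin lung while Scgb1a1, the defining product of club cells, did not fall. Scgb3a1 and Bpifa1 ranged from near background to high levels within the healthy lungs alone. Of the 5 genes, none rose and 2 fell against the healthy lung, beside 43.1% of all genes called (21.3% higher, 21.8% lower). The median change of the 5 was 0.45, and that of all genes -0.04.

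Cyp2f2, which in mouse club cells converts naphthalene to its toxic form, had 12.81, 12.09 and 12.63 in bleomycin lungs and 15.06, 15.01 and 14.60 in healthy lungs. Every bleomycin lung lay below every healthy lung, with a gap of 1.79 between the nearest samples. The fall was 5.20-fold (log2 change -2.38 ± 0.27, adjusted p = 5.36e-05, limma). It held in 22 of 22 other settings (-2.53 to -1.71). Without bleomycin lung 3, the one with Xist and no Eif2s3y, it was -2.44 (adjusted p = 0.000267).

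Chil1 had 10.83, 11.22 and 11.85 in bleomycin lungs and 13.34, 13.55 and 13.32 in healthy lungs. The groups did not overlap (gap 1.46), and the bleomycin lungs varied more (SD 0.52, against 0.13 in healthy lungs). Chil1 fell 4.30-fold (-2.10 ± 0.38, adjusted p = 0.000977, limma), also in 22 of 22 other settings. Among 5 tested other members of the chitinase family, 3 rose and none fell (median 0.93), beside 21.3% of all genes called higher and 21.8% lower. Chil4, a chitinase-like protein of airway epithelium, had 12.61, 12.43 and 12.69 in bleomycin lungs and 9.16, 11.05 and 8.45 in healthy lungs (3.03 ± 0.54, adjusted p = 0.000884). Chil3, made by activated macrophages, rose by 2.37 ± 0.52 (adjusted p = 0.00332), and the oviduct glycoprotein gene Ovgp1 by 0.93 ± 0.26 (adjusted p = 0.0114). Chil1 therefore moved opposite to its 3 relatives that passed.

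Scgb1a1 had 15.01, 14.88 and 14.93 in bleomycin lungs and 14.23, 14.70 and 14.53 in healthy lungs. All bleomycin lungs lay above all healthy lungs, yet the change missed the threshold (0.45 ± 0.23, 95% interval -0.04 to 0.95, adjusted p = 0.128). The probe was among the brightest of the array, at rank 2 to 7 of 45281 in bleomycin lungs and rank 16 to 45 in healthy lungs, where ranks leave little room for a rise. Its raw signal was 40633 to 44896 in bleomycin lungs, 88.6% to 99.3% of the brightest probe on the array, and 19650 to 22209 in healthy lungs, 65.3% to 79.3% of the brightest. Whether the probe was near saturation was not tested. The call depended on the scaling: with each array scaled to its median the change was 0.82 (adjusted p = 0.0203, limma), and with the deposited matrix values 1.00 (0.00775). It also depended on the weighting of samples, since array weights gave 0.57 (0.00792). Median scaling and the matrix values also moved the median of all genes, to 0.23 and 0.51.

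**Figure D1:**
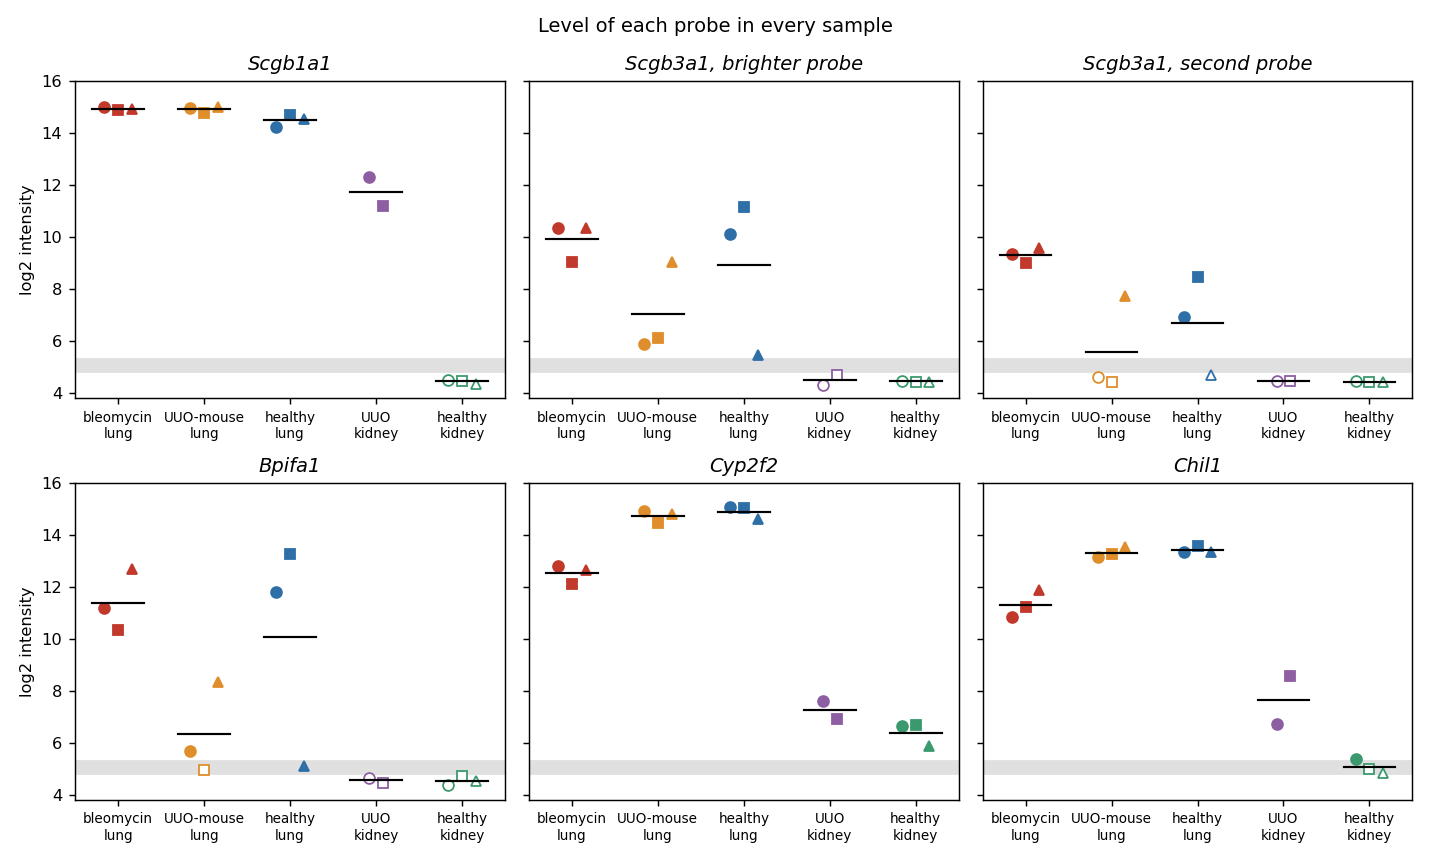
Log2 intensity (y axis) of the 6 probes in each of the 14 samples by group, with a marker shape for each replicate number, open symbols for samples not above background, a line at the group mean and a grey band over the lowest levels above background (4.79 to 5.30). Cyp2f2 and Chil1 lie lower in the 3 bleomycin lungs than in the other lungs, Scgb3a1 and Bpifa1 spread widely within groups, and Scgb1a1 is at 11.19 and 12.30 in the UUO kidneys and at background in healthy kidneys.

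Of 19 other club and secretory cell genes tested (of 24 listed), 3 rose and 10 fell in the bleomycin lung, with a median of -1.15. Of all genes 21.3% were called higher and 21.8% lower. Without healthy lung 3, a setting chosen after seeing the data, 1 rose and 12 fell, beside 18.7% of all genes higher and 21.3% lower. The falls with the smallest adjusted p were those of enzymes of club cells: the carbonyl reductase Cbr2, the paraoxonase Pon1 and the retinaldehyde dehydrogenase Aldh1a1. Cbr2 had 12.91, 12.58 and 12.77 in bleomycin lungs and 14.57, 14.62 and 14.52 in healthy lungs (-1.82 ± 0.17, adjusted p = 1.81e-05). Pon1 changed by -3.16 ± 0.34 (adjusted p = 3.89e-05) and Aldh1a1 by -1.57 ± 0.23 (adjusted p = 0.000223). The genes that rose were Retnla, a resistin-like factor also made by alternatively activated macrophages (4.46 ± 0.61, adjusted p = 0.000152), the antibacterial lectin gene Reg3g (2.32 ± 0.74, adjusted p = 0.0239) and the glutathione transferase gene Gsto1 (0.89 ± 0.26, adjusted p = 0.0142). Reg3g overlapped between the groups, because bleomycin lung 2 had 7.48 and healthy lung 2 had 8.26. Without healthy lung 3, where it was 4.35, Reg3g was at 1.33 (adjusted p = 0.0711) and Gsto1 at 0.63 (adjusted p = 0.0564). The secretoglobin Scgb1c1, the other secretoglobin that was tested, fell too (-1.92 ± 0.26, adjusted p = 0.000152). Scgb1a1 was thus higher in rank in bleomycin than in healthy lungs while most of these genes were lower.

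Markers of other cells were set beside these values. All 10 tested macrophage markers rose (median 2.31, 21.3% of all genes higher), with summed log2 levels in bleomycin lungs of 13.34 to 14.29, against 11.10 to 11.55 in healthy ones. Ciliated cell markers fell in 3 of 16 (median -0.71), below the 21.8% of all genes called lower, but healthy lung 3 was apart there too, with a median level of 7.51, against 8.97 and 8.95 in healthy lungs 1 and 2 and 7.51 to 8.23 in bleomycin lungs. Without it 10 of 16 fell (median -1.10, 21.3% of all genes lower), and 13 of 16 fell in the bleomycin against the UUO-mouse lung (median -1.39, 27.8% of all genes lower). Against all healthy lungs the tubulin-binding Tppp3 was at -1.41 ± 0.24 (adjusted p = 0.000586), while Foxj1, the master regulator of motile cilia, was at -0.16 ± 0.24 (adjusted p = 0.613). Alveolar type 2 markers fell in 4 of 11 (median -0.46, 21.8% of all genes lower), among them the surfactant protein gene Sftpa1 (-2.01 ± 0.26, adjusted p = 0.000121), while Sftpc was at -0.48 ± 0.27 (adjusted p = 0.179). Of the airway transcription factor and Notch genes, 2 of 13 fell, no larger a share than among all genes: Notch1 (-0.77 ± 0.18, adjusted p = 0.00446) and Grhl2, a regulator of epithelial identity (-0.87 ± 0.22, adjusted p = 0.00667). Among 7 basal cell markers 2 rose, a share near the 21.3% of all genes called higher. These were the keratin gene Krt14 (2.66 ± 0.60, adjusted p = 0.00379) and Trp63 (at least 1.82-fold higher, adjusted p = 0.00895), while Krt5 was at background in all lungs. The part of a changed cell mixture in the falls of Cyp2f2 and Chil1 was not tested.

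**Figure D2:**
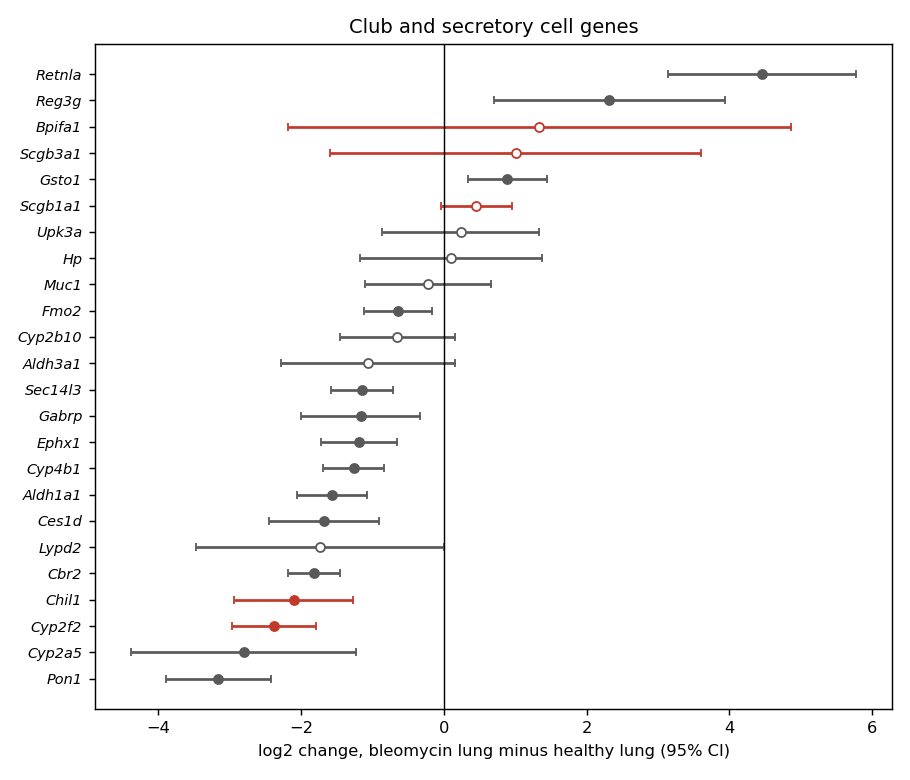
Log2 change in bleomycin lung minus healthy lung (x axis, points with 95% intervals) of the 5 genes in red and of 19 other club and secretory cell genes in grey, sorted by change, with filled symbols for an adjusted p under 0.05. Cyp2f2 (-2.38) and Chil1 (-2.10) lie among the 10 other genes that fell, Scgb1a1 (0.45) does not.

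Scgb3a1 and Bpifa1 split the healthy lungs. Bpifa1 had 11.16, 10.33 and 12.66 in bleomycin lungs, 5.67, 4.94 and 8.34 in UUO-mouse lungs and 11.80, 13.26 and 5.08 in healthy lungs. The brighter probe of Scgb3a1 had 10.36, 9.04 and 10.35 in bleomycin lungs, 5.90, 6.13 and 9.04 in UUO-mouse lungs and 10.11, 11.15 and 5.46 in healthy lungs. For both genes healthy lung 3 lay near the background and healthy lungs 1 and 2 were as high as bleomycin lungs, and UUO-mouse lung 3 was the highest of its group. Against the healthy lung, bleomycin lungs differed by 1.34 ± 1.62 for Bpifa1 (adjusted p = 0.529) and 1.01 ± 1.19 for Scgb3a1 (adjusted p = 0.52). Without healthy lung 3 the sign turned, to -1.15 for Bpifa1 (adjusted p = 0.321) and -0.72 for Scgb3a1 (adjusted p = 0.485).

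The second probe of Scgb3a1 gave another answer. It had 9.34, 8.99 and 9.57 in bleomycin lungs, 4.60, 4.43 and 7.73 in UUO-mouse lungs and 6.92, 8.47 and 4.69 in healthy lungs. All bleomycin lungs lay above all other lungs on this probe, and it passed against the healthy lung (2.61 ± 0.88, adjusted p = 0.0282 over all probes, limma) and against the UUO-mouse lung (3.71 ± 0.88, adjusted p = 0.00339). The brighter probe passed in neither (adjusted p = 0.0613 against the UUO-mouse lung), so Scgb3a1 has no settled change.

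Of 8 other genes of airway glands and mucosal defence, 2 were lower in healthy lung 3 than in the mean of healthy lungs 1 and 2 by more than 1 in log2, Ltf and Bpifb1, and 1 was higher, Azgp1 (12.38, against 4.60 and 4.96). Ltf, the iron-binding lactoferrin of gland and neutrophil secretions, had 11.80, 11.26 and 12.75 in bleomycin lungs, 7.98, 7.84 and 9.98 in UUO-mouse lungs and 10.97, 12.86 and 6.18 in healthy lungs. Bpifb1, a relative of Bpifa1, had 8.97, 7.24 and 10.08 in bleomycin lungs, 6.76, 4.85 and 9.23 in UUO-mouse lungs and 9.37, 11.12 and 4.68 in healthy lungs. Healthy lung 3 was the lowest of the 9 lungs for Ltf, and for Bpifb1 both healthy lung 3 and UUO-mouse lung 2 were at background. Heart muscle transcripts varied with Ltf and Bpifb1 in part: their summed log2 level was 12.05 to 13.53 in bleomycin lungs, 13.81, 10.47 and 13.24 in UUO-mouse lungs and 14.76, 15.91 and 10.05 in healthy lungs. Healthy lung 3 and UUO-mouse lung 2 were lowest there too, whereas UUO-mouse lung 1 was high in heart muscle transcripts and low in Bpifa1. None of the 7 heart muscle markers passed in any comparison between lungs (5 to 7 above background in each lung). Without healthy lung 3, chosen after seeing the data, 6 fell in the bleomycin lung against the healthy lung (21.3% of all genes lower). In the UUO-mouse lung 5 fell in that setting (2.88% of all genes lower). The setting removes the lung lowest in these transcripts, so the counts follow in part from that choice. The part of heart muscle transcripts in the levels of Bpifa1 and Scgb3a1 was not tested, and the labels say nothing on how the organs were dissected. Cyp2f2 was 14.60 and Scgb1a1 14.53 in healthy lung 3, which differed from the healthy means by -0.29 and 0.04. Other club and secretory cell genes shared the split in part: 6 of 19 were lower in healthy lung 3 than in the mean of healthy lungs 1 and 2 by more than 1 in log2, as were 3.01% of all genes. Lypd2, a surface protein gene of secretory cells, had 11.33 and 11.58 in healthy lungs 1 and 2 and 8.44 in healthy lung 3.

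**Figure D3:**
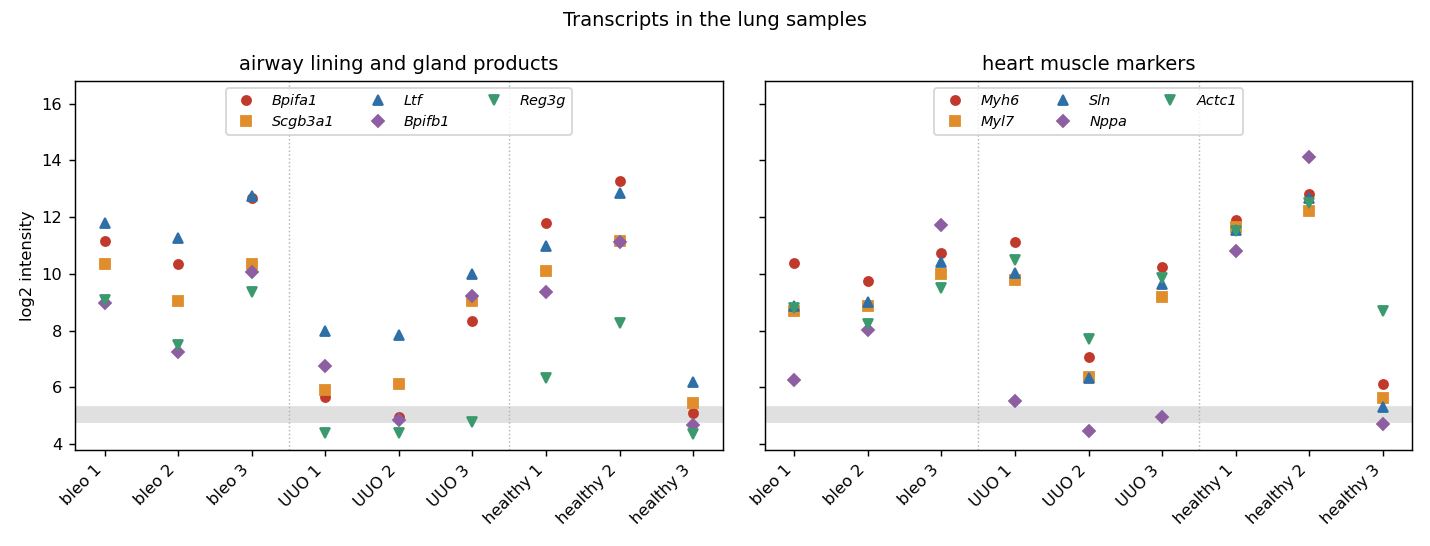
Log2 intensity (y axis) in each of the 9 lungs, bleomycin lungs left, UUO-mouse lungs in the middle and healthy lungs right, for airway lining and gland products (left panel) and heart muscle markers (right panel), with the grey band over the lowest levels above background. Bpifa1, Scgb3a1, Ltf, Bpifb1 and Reg3g are low together in healthy lung 3, and heart muscle markers are low in healthy lung 3 and UUO-mouse lung 2.

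The comparison of the UUO-mouse lung asks whether an injured kidney is accompanied by changes in the lung. None of the 5 genes passed there against the healthy lung, beside 5.89% of all genes called higher and 5.08% lower. In that limma fit 1 of the 5, Bpifa1, was under an unadjusted p of 0.05 (-3.73 ± 1.62, adjusted p = 0.154). Leaving out healthy lung 3, the healthy lung near background for both genes, gave -6.22 for Bpifa1 (adjusted p = 0.00553) and -3.61 for Scgb3a1 (adjusted p = 0.0241). These larger falls follow in part from that choice. Leaving out UUO-mouse lung 1 as well gave -5.89 for Bpifa1 (adjusted p = 0.0121). Over all single omissions the change ran from -6.22 to -2.13 for Bpifa1 and from -3.61 to -0.76 for Scgb3a1. The highest adjusted p over all settings was 0.416 and 0.725 (limma). Cyp2f2 had 14.91, 14.44 and 14.78 in UUO-mouse lungs, within the range of healthy lungs but for 1 sample (-0.18 ± 0.27, 95% interval -0.77 to 0.41). Chil1 had 13.13, 13.24 and 13.52 (-0.10 ± 0.38, 95% interval -0.94 to 0.73). Scgb1a1 had 14.98, 14.76 and 15.01, all above the healthy lungs, and the difference of 0.43 ± 0.23 missed the threshold (adjusted p = 0.238). Array weights brought Scgb1a1 (0.55, adjusted p = 0.0281) and Bpifa1 (-4.04, adjusted p = 0.0405) past the threshold. Of the 19 other club and secretory cell genes 1 fell, the monooxygenase gene Fmo2 (-0.96 ± 0.22, adjusted p = 0.0194), and Scgb1c1 rose by 0.93 ± 0.26 (adjusted p = 0.0413), opposite to the bleomycin lung, a call lost without healthy lung 3 (0.73, adjusted p = 0.139).

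The direct comparison of both injured groups uses no healthy sample for the difference itself. Its SE comes from all 5 groups, so it includes the spread of the healthy lungs (SD 4.36 for Bpifa1). In the bleomycin lung against the UUO-mouse lung 1 of the 5 genes rose and 2 fell, beside 50.1% of all genes called (22.3% higher, 27.8% lower). Cyp2f2 was lower by 2.20 ± 0.27 (adjusted p = 5.06e-05) and Chil1 by 2.00 ± 0.38 (adjusted p = 0.00102). Bpifa1 was higher by 5.07 ± 1.62 (adjusted p = 0.0202), with all bleomycin lungs above all UUO-mouse lungs. That call was lost without bleomycin lung 3 (adjusted p = 0.0717), UUO-mouse lung 1 (0.0597) or UUO-mouse lung 2 (0.0695). Scgb1a1 differed by 0.02 ± 0.23 (95% interval -0.47 to 0.52). The comparisons of each injured lung with the healthy lung share the healthy samples.

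**Figure D4:**
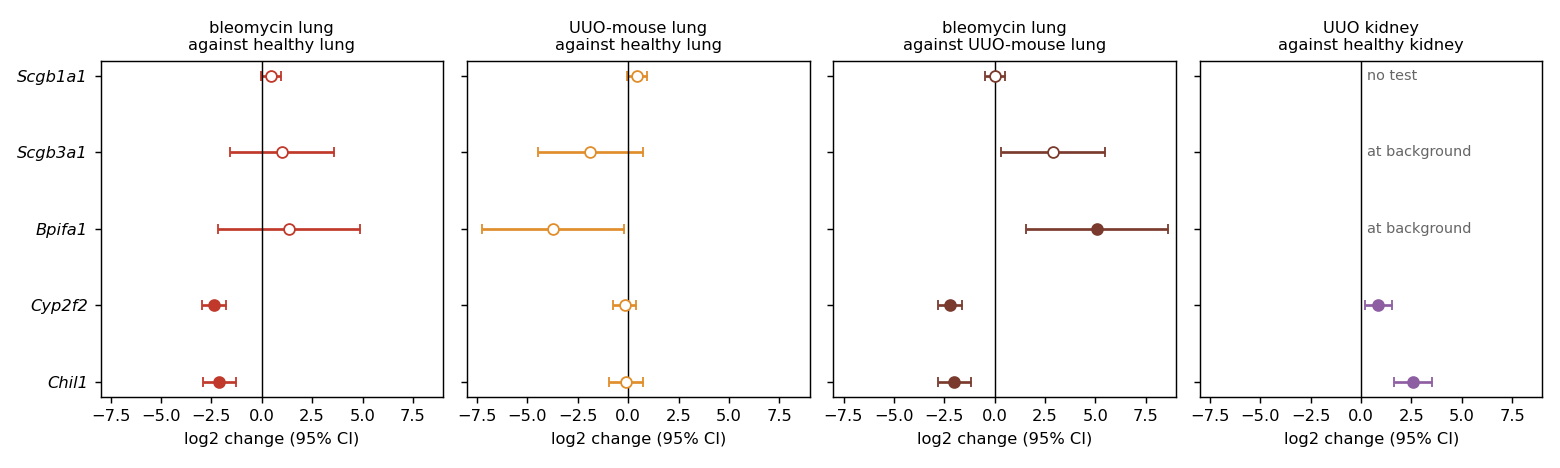
Log2 change (x axis, points with 95% intervals) of the 5 genes in 4 comparisons, with filled symbols for an adjusted p under 0.05. Cyp2f2 and Chil1 lie left of 0 in both comparisons of the bleomycin lung and right of 0 in the UUO kidney, where Scgb1a1 has no test and Scgb3a1 and Bpifa1 were at background.

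In the obstructed kidney a signal of Scgb1a1 was present. Its log2 intensity was 12.30 and 11.19 in UUO kidneys and 4.49, 4.47 and 4.35 in healthy kidneys, and the raw signals were 6392.8 and 2367.1 in UUO kidneys and 109.3, 109.7 and 104.3 in healthy kidneys. Both UUO kidneys lay far above background and none of the healthy kidneys did. With the background correction used here, the mean of the UUO kidneys was at least 91.4-fold higher, set against the lowest level above background. This signal is named in the rule that chose the genes and has no test. Without background correction the log2 difference was 5.12, with a normexp offset of 50 it was 5.96, and in the other settings 6.75 to 7.86. The probe ranked 458 and 1218 of 45281 in the UUO kidneys. Its mean of 11.74 differed from that of the UUO-mouse lungs by -3.18 on the log2 scale.

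Other genes of the lung epithelium were not raised to the same degree. Bpifa1 and Scgb3a1 were at background in all 5 kidneys. Cyp2f2, above background in every kidney, had 7.59 and 6.89 in UUO kidneys and 6.63, 6.66 and 5.88 in healthy kidneys (0.85 ± 0.30, adjusted p = 0.0376). Chil1 had 6.72 and 8.55 in UUO kidneys and 5.38, 4.97 and 4.82 in healthy kidneys, of which 1 was above background. It rose by 2.58 ± 0.43 (adjusted p = 0.000479). Both genes that could be tested thus rose, beside 43.0% of all genes called and 26.0% called higher. The call of Chil1 held in 20 of 20 other settings (1.32 to 3.49), and that of Cyp2f2 was lost in 8 of 20, among them without UUO kidney 1 (0.50, adjusted p = 0.293) and without healthy kidney 3 (0.60, adjusted p = 0.127). UUO kidney 1 was the higher for Scgb1a1 and Cyp2f2, and UUO kidney 2 for Chil1. Against the change in the UUO-mouse lung, that of Chil1 in the kidney was larger by 2.68 ± 0.57 (test of the difference, adjusted p = 0.00473), beside 27.7% of all genes called in that test.

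Alveolar transcripts were set beside this signal. Of 11 alveolar type 2 markers 4 rose and none fell (median 0.46, that of all genes 0.11). The surfactant protein genes Sftpd and Sftpc had 9.36 and 8.60, and 9.06 and 7.58, in UUO kidneys and were at background in healthy kidneys, at least 13.4-fold and 8.52-fold higher (adjusted p = 1.97e-08 and 2.68e-06). The phosphate transporter gene Slc34a2 had 6.72 and 8.36 in UUO kidneys and 4.52, 4.49 and 4.81 in healthy kidneys. By contrast Lamp3, of lamellar bodies, and Cldn18, of alveolar tight junctions, were above background in neither UUO kidney, and Sftpa1 and Sftpb in 1 of 2 each. Cldn18 is from the list of alveolar type 1 markers, of which 4 of 10 rose and 3 fell (median 0.51). All genes rose in 3034 and fell in 1975 of 11648. Pdpn of that list had 11.24 and 12.32 in UUO kidneys and a mean of 8.57 in healthy kidneys. The summed log2 level of the type 2 list was 15.07 to 15.25 in UUO kidneys and 15.16 to 15.25 in healthy kidneys, where Napsa and Abca3, both high in every kidney, carried it.

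A single mouse gave both a UUO kidney and a lung. Kidney 2 minus lung 2 was -3.58 for Scgb1a1, -4.70 for Chil1, -5.88 for Sftpd, -6.37 for Sftpc and -7.55 for Cyp2f2. Most other club cell and alveolar genes listed also lay lower in that kidney, but Napsa (1.83), Gsto1 (1.14) and Cyp2a5 (0.11) lay higher. The part of carried-over lung RNA in these levels was not tested.

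Injury genes of the kidney rose in the same samples. All 6 tested tubule injury genes rose (median 4.84), among them the keratin gene Krt20 (at least 23.1-fold higher, adjusted p = 1.3e-05) and the repair factor gene Sox9 (4.40 ± 0.45, adjusted p = 1.54e-05). Macrophage markers rose in 9 of 10 (median 2.71), with a summed log2 level of 12.21 to 13.37 in UUO kidneys and 9.26 to 9.53 in healthy kidneys. The neutrophil gelatinase-associated lipocalin Lcn2 had 11.13 and 14.76 in UUO kidneys and 5.27, 5.63 and 6.50 in healthy kidneys, higher in kidney 2 like Chil1. Of the other club and secretory cell genes 5 rose and 6 fell among 19 (median 0.06), beside 3034 and 1975 of all 11648 genes, so the share that rose was that of all genes. Cbr2 changed by 0.86 ± 0.19 (adjusted p = 0.00294) and the kidney-rich P450 gene Cyp4b1 by -4.71 ± 0.22 (adjusted p = 5.99e-08). Neutrophil markers differed between the UUO kidneys as Chil1 did, with a summed log2 level of 8.61 in kidney 1 and 12.87 in kidney 2, against 8.36 to 8.99 in healthy kidneys. Of 10 neutrophil markers 1 rose, S100a9 (3.23, adjusted p = 0.0475, limma), beside 26.0% of all genes called higher. S100a9 had 6.11 and 11.08 in UUO kidneys and 6.08, 5.01 and 5.01 in healthy kidneys, so kidney 1 was level with healthy kidney 1. S100a8 had 6.63 and 12.01 in UUO kidneys. The part of macrophages and neutrophils in the level of Chil1 was not tested.

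**Figure D5:**
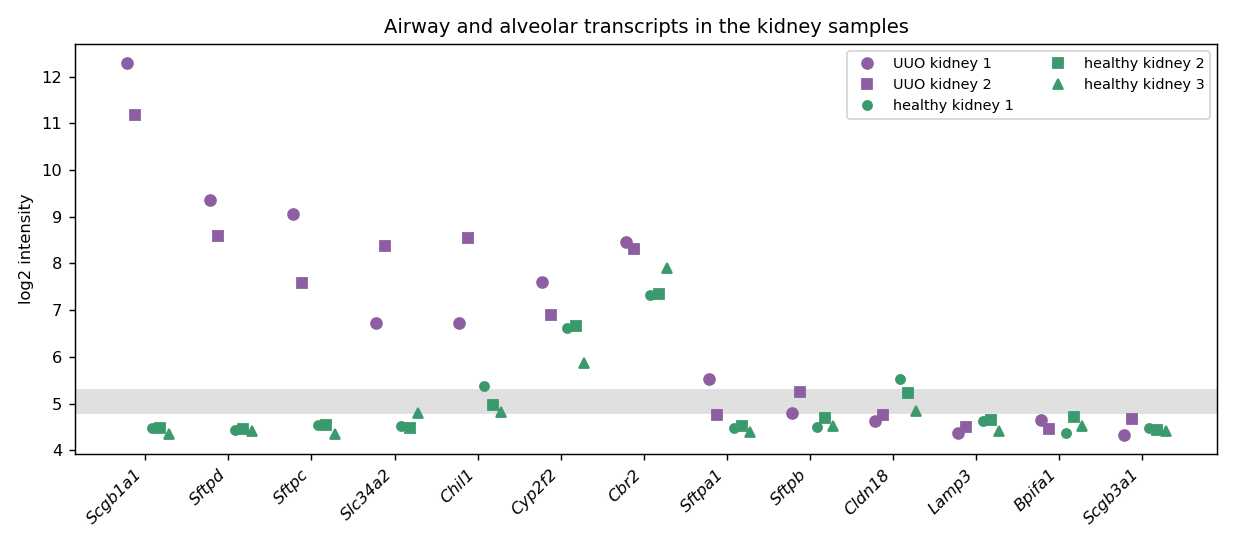
Log2 intensity (y axis) of airway and alveolar genes (x axis) in the 2 UUO kidneys (purple, left of each pair) and the 3 healthy kidneys (green), with the grey band over the lowest levels above background. Scgb1a1 is at 12.30 and 11.19 in UUO kidneys, Sftpd, Sftpc, Slc34a2 and Chil1 are raised less, and Lamp3, Bpifa1 and Scgb3a1 are at background.

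Between healthy organs all 5 genes were lower in the kidney, beside 66.6% of all genes called and 36.8% called lower. Scgb1a1 was at least 612-fold lower in healthy kidney than in healthy lung (adjusted p = 1.41e-11), Bpifa1 at least 28.3-fold (adjusted p = 0.00943) and Scgb3a1 at least 12.8-fold (adjusted p = 0.00548). The limits of Bpifa1 and Scgb3a1 depended on healthy lung 3, near background for both, and without it were at least 158-fold and 42.3-fold. Cyp2f2 and Chil1 were lower by 8.50 ± 0.27 and 8.35 ± 0.38 on the log2 scale (adjusted p = 1.45e-10 and 2.8e-09), with Chil1 above background in 1 of 3 healthy kidneys. By mean level the groups ran, for Scgb1a1, from bleomycin lung (14.94) through UUO-mouse lung (14.92), healthy lung (14.49) and UUO kidney (11.74) to healthy kidney (4.44), and only the first neighbours overlapped. For Cyp2f2 and Chil1 the order was healthy lung, UUO-mouse lung, bleomycin lung, UUO kidney and healthy kidney, and the first neighbours overlapped as well. For Scgb3a1 and Bpifa1 the lung groups overlapped, except that bleomycin and UUO-mouse lungs met at 9.04 for Scgb3a1 and lay apart for Bpifa1, and the kidneys were all at background.

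The genes most like each member over the 9 lungs were sought by Pearson's correlation of log2 intensity. The 11648 genes were searched without the 5 members, as a description, since the lungs share their groups and arrays. Scgb3a1 was most like Ltf (0.97), the small heat shock protein gene Hspb7 (0.95) and Bpifb1 (0.93), and Bpifa1 was most like Hspb7 (0.96), Ltf (0.96) and Wdr20rt (0.94). Scgb3a1 and Bpifa1 had 0.97 with each other, higher than with any of these genes. Cyp2f2 was most like Brd3 (1.00), Add1 (0.99) and Mapt (0.99), and Chil1 like Tapbpl (0.99), Pcdha7 (0.99) and the clock output gene Dbp (0.98), while Cyp2f2 and Chil1 had 0.94 with each other. Scgb1a1 was like none of the other members (-0.46 to 0.01) and most like Csrp2 (0.95), Abitram (0.93) and Panx1 (0.93), on a range of 0.78 in log2. Over all 14 samples, kidneys included, the lysozyme gene Lyz1 was the most like Scgb1a1 (0.99).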

How the data were processed

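Total RNA was measured as biotinylated cRNA on Illumina arrays, per the labels' protocols. The deposited values are raw signal intensities with a detection p-value per probe, written by GenomeStudio 5.0 according to the submitters' processing notes. Intensities were background corrected (normexp with controls inferred from the detection p-values, offset 16), quantile normalized and log2 transformed with limma 3.58.1 in R 4.3.3. Both arrays of UUO-mouse lung 2 (correlation 0.97) were averaged, giving 14 samples from 15 arrays. Of 45281 probes 46.5% passed the detection limit, and the brightest probe stood for each of 11648 genes. A model with 5 group means was fitted with lmFit and eBayes. The number of arrays limits the precision. Where a group was at background, a fold is a bound against the lowest level above background. On simulated data for bleomycin lung against healthy lung (11648 genes, 200 changed), 59% of log2 changes of 1 and 95% of changes of 2 were called.

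The genes, lists and tests were chosen with earlier results of these data known. The text names the 6 listed genes, up to 3 risers and 3 fallers of a list with the smallest adjusted p (or the smallest of all), Foxj1, Sftpc and Krt5, and the 3 genes outside the members most like each member. Ltf, Bpifb1, Chil3, Slc34a2, Napsa, Abca3, Lamp3, Cldn18, Sftpb, Pdpn, Cyp2a5, Umod, Lypd2, Azgp1, S100a8, and Gsto1 and Lcn2 in the kidney by sample, were named after their values were seen. As a check of pairing, deviations from group means were correlated between samples of different groups. Organs of the same mouse gave -0.12 to 0.19, samples that share only a number -0.57 to 0.17 and other samples -0.37 to 0.55. These ranges overlap, so the check cannot show which samples are paired. By the animal numbers in the titles, a shared replicate number names the same mouse in some lung and kidney pairs and different mice in others.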

Additional observations from a re-analysis of the deposited data

Results flagged for a closer look

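The change of Chil1 differed between the 2 organs of UUO mice, in which sex and obstruction cannot be told apart. Its change was 2.58 in UUO kidney against healthy kidney and -0.10 in UUO-mouse lung against healthy lung, and the test of the difference itself gave 2.68 ± 0.57 (adjusted p = 0.00473 over all genes, limma), beside 27.7% of all genes called in that test. The same difference for Cyp2f2 was 1.03 ± 0.40 and did not pass (adjusted p = 0.0775). Chil1 was above background in 1 of 3 healthy kidneys, and the UUO kidneys were 6.72 and 8.55.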

How the results depend on the processing

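Each of 23 results on single genes was rerun in 20 or 22 other settings, and 466 of these 500 reruns kept direction and side of the threshold. The calls of Cyp2f2 and Chil1 in the bleomycin lung, of Chil1 in the UUO kidney and of all 5 genes between healthy organs held in every setting run. With every kept probe tested, 9354, 2543, 10952, 9209 and 13733 probes passed in bleomycin against healthy lung, UUO-mouse against healthy lung, bleomycin against UUO-mouse lung, UUO against healthy kidney and healthy kidney against healthy lung, because more features were tested. In UUO-mouse lung against healthy lung 1278 genes passed, but 2926 with array weights, 306 to 1279 leaving out 1 sample and 354 without healthy lung 3 and UUO-mouse lung 1; of the 5 genes 0 passed, but 2 with array weights, 0 to 2 leaving out 1 sample and 1 without both lungs. In the UUO kidney 2 passed, but 1 (Chil1) without background correction, with offset 50, with the matrix values, without a filter, with array weights or with only the groups compared, and 1 to 2 leaving out 1 sample; the cause was not tested. Cyp2f2 turned in the UUO-mouse lung, to 0.00 with median scaling (0.0028) and 0.23 with the matrix values, Scgb3a1 and Bpifa1 in the bleomycin lung without healthy lung 3, also with UUO-mouse lung 1 left out (-0.7167 and -1.1465; leaving out 1 sample, -0.7167 to 2.1313 and -1.1465 to 2.9432), and Scgb1a1 in bleomycin against UUO-mouse lung without bleomycin lung 1 (-0.0127) or UUO-mouse lung 2 (leaving out 1 sample, -0.054 to 0.0692). The share of higher calls in bleomycin against healthy lung was 49.4%, 75.1% with median scaling and 87.1% with the matrix values; in UUO-mouse against healthy lung it was 53.7%, 3.3% and 15.8%, in bleomycin against UUO-mouse lung 44.5%, 86.1% and 89% and in UUO against healthy kidney 60.6%, 78% and 34.6%. The median of all genes moved with it, to -0.25 and -0.11 in the UUO-mouse lung and 0.33 and -0.21 in the UUO kidney. The replicate block, whose numbers pair mice only in part, gave 4856 genes in the bleomycin lung against 5024 and changed no call of the 5 genes. Slide as a block was not run, because the headers name no slide, nor normalization within the organ for kidney against lung.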
